A study of Mus musculus with 8 samples.

Results

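Nkx2-3 (ENSMUSG00000044220) is 1 of the 30406 gene identifiers shared by the feature lists of 8 single-cell libraries of mouse endothelial cells, and its counts are described here in every library, class of cells and cluster. It was found by its symbol. It was chosen because earlier results on these same counts showed it in the mesentery and hardly at all in adipose tissue, so its levels by tissue are a description and carry no test. Of 19368 endothelial cells, 1614 held at least 1 Nkx2-3 UMI (unique molecular identifier, the tag that marks 1 captured transcript). Of these, 1612 were among 8658 endothelial cells of the mesentery and 2 among 10710 of epididymal adipose tissue. Within the mesentery the gene lay mainly in venous-like and arterial-like cells, and it was near background in lymphatic-like cells.

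All mice were male ROSA26-eYFP+/+ Cdh5-CreERT2+ animals, in which tamoxifen lets a Cre recombinase driven by the endothelial gene Cdh5 switch on a yellow fluorescent reporter. Tamoxifen was given in the diet from 6 weeks of age for 2 weeks, also to the mice that served as controls for diet. The diets began at 8 weeks of age and lasted 12 to 13 weeks: normal chow, with 5.8% fat, or the high fat diet (HFD), with 60%. The 4 groups are mesentery and epididymal adipose, each on chow and on HFD. Each library pooled the tissue of 6 mice and was sorted for the reporter before 10x Genomics 3' sequencing with about 5000 cells as the target. The work was done in 2 independent rounds, called runs A and B, so a group has n = 2 pools. The deposited values do not separate the mice of a pool. A p-value for diet or tissue measures the spread between pools. Where cells with and without a UMI of the gene are compared, both sides come from the same pools. With the library as a block, that p-value leaves out differences in level between pools.

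Nkx2-3 belongs to the NK2 family of homeodomain transcription factors, proteins that bind short DNA sites and are best known for setting the identity of organs. In mice it is known from the gut mesenchyme, the spleen and the endothelium of gut and spleen, where its loss disturbs the vessels and lowers MAdCAM-1. MAdCAM-1, encoded by Madcam1, is the adhesion molecule to which lymphocytes bind when they enter the gut and its lymphoid tissue. Endothelial cells keep such tissue-specific factors beside the arterial, capillary, venous and lymphatic programmes that all organs share.

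In the RefSeq annotation of build GRCm38.p6 (the study's mm10), Nkx2-3 lies on the plus strand of chr19:43612325-43615892, a span of 3568 bases. The lncRNA gene Gm20467 lies on the minus strand at chr19:43609077-43612056, and the starts of the pair are 268 bases apart, so the stretch between them is upstream of both. The next genes that could be matched in the feature lists are Slc25a28 and Entpd7 on one side and Got1 and Cnnm1 on the other. The 250 bases before the starts of Nkx2-3 and of Madcam1, its best known candidate target, are shown in RefSeq's sequence to make the difference between them visible: the core of NK2 binding sites, AAGTG on either strand (CACTT on the other), is in capitals.
Nkx2-3 (chr19:43612075-43612324, plus strand): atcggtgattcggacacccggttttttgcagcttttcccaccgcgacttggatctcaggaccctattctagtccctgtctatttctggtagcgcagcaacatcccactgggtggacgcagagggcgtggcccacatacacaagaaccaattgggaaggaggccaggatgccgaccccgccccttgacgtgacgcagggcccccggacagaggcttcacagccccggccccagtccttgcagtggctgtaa
Madcam1 (chr10:79664309-79664558, plus strand): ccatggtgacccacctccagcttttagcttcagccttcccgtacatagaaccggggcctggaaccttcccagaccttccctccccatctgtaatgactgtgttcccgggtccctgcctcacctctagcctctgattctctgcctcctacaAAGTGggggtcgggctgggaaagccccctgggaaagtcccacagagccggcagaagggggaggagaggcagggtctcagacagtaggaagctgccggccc
The window of Nkx2-3 holds the motif 0 times, and that of Madcam1 holds 1 copy, starting 100 bases before the gene's start. The same motif is in 40.7% of all 32851 RefSeq windows of this length (27025 genes), so a copy is common. The window of Nkx2-3 holds 14 CpG dinucleotides at 60% GC and that of Madcam1 holds 6 at 61.2% GC, where the median window holds 6 at 52.4% GC. A count of 14 or more is reached by 29.4% of windows. A match is a run of letters and not a measured site, and no binding was measured.

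Depth differed far more between runs than between groups: run A libraries held 3461360 to 6714473 UMIs in 1352 to 2780 barcodes, and run B libraries 18829960 to 36779289 UMIs in 3189 to 6218 barcodes. After filters on cells and removal of 763 called doublets, 23207 cells remained, of which 19368 carried the endothelial markers the sort was meant to enrich. The other cells were fibroblast-like, macrophage-like, adipocyte-like, lymphocyte-like, mesothelial-like or unnamed, so the gate also let other cells through. Classes were named from markers on clusters made without Nkx2-3 and Gm20467 and bear the ending "-like". Libraries shared 0 to 10 cell barcodes per pair, at most 0.3125% of the smaller library. Levels are given as the share of cells with a UMI and as CPM, the gene's share of all UMIs summed over a class in a library, on the usual scale of RNA-seq, and the intervals are exact 95% limits that cover counting error only.

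In all endothelial cells of the mesentery, Nkx2-3 stood at 192 and 99.6 CPM on chow (run A, then run B) and at 67.5 and 41.9 CPM on HFD. All 4 mesenteric libraries thus held the gene at a mean of 100.2 ± 65.6 CPM (SD, n = 4). The shares of cells with a UMI were 31.97%, 20.4%, 13.6% and 10.6% in that order. Thinned to 1000 UMIs per cell so that depth is equal, they were 13.99%, 8.27%, 6.03% and 3.70%, in the same order from high to low. In adipose, 0 of 1362 cells on chow in run A, 0 of 4846 on chow in run B and 0 of 3441 on HFD in run B held a UMI. A count of 0 in these libraries allows a share of up to 0.22%, 0.0619% and 0.0872%. The run A library of adipose on HFD held 2 such cells of 1061. Over each tissue the level was 88.97 CPM from 3714 UMIs in the mesentery and 0.0392 CPM from 2 UMIs in adipose.

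The few adipose barcodes with Nkx2-3 were looked at one by one. All deposited adipose barcodes together held it 3 times, once each in 3 barcodes of the run A library on HFD. One was a venous-like cell of 3970 UMIs and another an arterial-like cell of 1960 UMIs. The third had 942 UMIs with 10.9% mitochondrial counts and was filtered out. None of the 3 barcodes occurs in a mesenteric library. In the other 3 adipose libraries all barcodes were at 0, including those that failed the filters.

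Venous-like cells of the mesentery held the most Nkx2-3 of the 4 named endothelial classes. On chow 324 of 607 cells (53.4%) in run A and 423 of 813 (52.0%) in run B had a UMI, and on HFD 35 of 84 (41.7%) and 87 of 352 (24.7%). The summed levels were 264 and 278 CPM on chow and 167 and 109 CPM on HFD. In CPM both chow libraries were close to each other and above both libraries on HFD. Over the tissue 46.8% of 1856 venous-like cells were positive: 360 with 1 UMI, 184 with 2 and 325 with 3 or more, up to 19 in a cell. In adipose 1 of 1363 venous-like cells was positive.

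Arterial-like cells came next, with a spread that the diets did not sort. Their shares on chow were 43.3% of 180 cells in run A and 36.3% of 706 in run B, and on HFD 37.0% of 127 and 13.3% of 572. In CPM the values were 263 and 154 on chow and 235 and 40.9 on HFD. The run A library on HFD lay between the chow libraries, and the run B library on HFD was the low one. Of all 1585 arterial-like cells 28.8% were positive, with up to 11 UMIs in a cell, and in adipose 1 of 1673. Over the 4 libraries the class averaged 173 ± 99.6 CPM (SD, n = 4) and venous-like cells 205 ± 80.5 CPM (SD, n = 4). Both classes come from the same libraries, and their order was not tested. In HFD A arterial-like cells were the higher, at 235 against 167 CPM, and in each other library venous-like cells were.

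Capillary-like cells of the mesentery were nearly negative. In run B 18 of 698 cells on chow (2.58%, 8.39 CPM) and 18 of 762 on HFD (2.36%, 5.31 CPM) held a UMI, and in adipose 0 of 2830. Run A had only 12 mesenteric capillary-like cells per diet, 1 of them positive. Over the tissue the share was 2.49% (1.76 to 3.42%). Lymphatic-like cells were lower still: 0 of 333 and 1 of 296 on chow and 2 of 379 and 0 of 129 on HFD, at 0 to 1.55 CPM.

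Cell types that should lack the gene set the background. In the mesentery 1 of 357 B cell-like cells (0.28%, 0.00709 to 1.55%) and 2 of 325 T cell-like cells (0.615%, 0.0746 to 2.21%) held an Nkx2-3 UMI, at median depths of 2235 and 3385 UMIs. The share of lymphatic-like cells, 0.264% at a median of 2862 UMIs, lies at that background and is read as such. The capillary-like share, at a median of 3858.5 UMIs, has an interval above that of B cell-like cells and overlapping that of T cell-like cells. Macrophage-like cells were at 1.09% of 276 and adipocyte-like cells at 1.52% of 394. The venous-like and arterial-like shares are far above all of these, at median depths of 4555 and 4055 UMIs. In adipose, B cell-like, T cell-like, macrophage-like and adipocyte-like cells held no Nkx2-3 UMI. Fibroblast-like cells of the mesentery stood apart from this background, with 52 of 322 positive against 0 of 319 in adipose, and its share was uneven. Fibroblast cluster 21 held it in 1 of 8 and 20 of 32 cells on chow and 2 of 12 and 8 of 20 on HFD in runs A and B, and cluster 27 in 1 of 68, 12 of 141, 4 of 30 and 4 of 11 in that order.

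**Figure D1:**
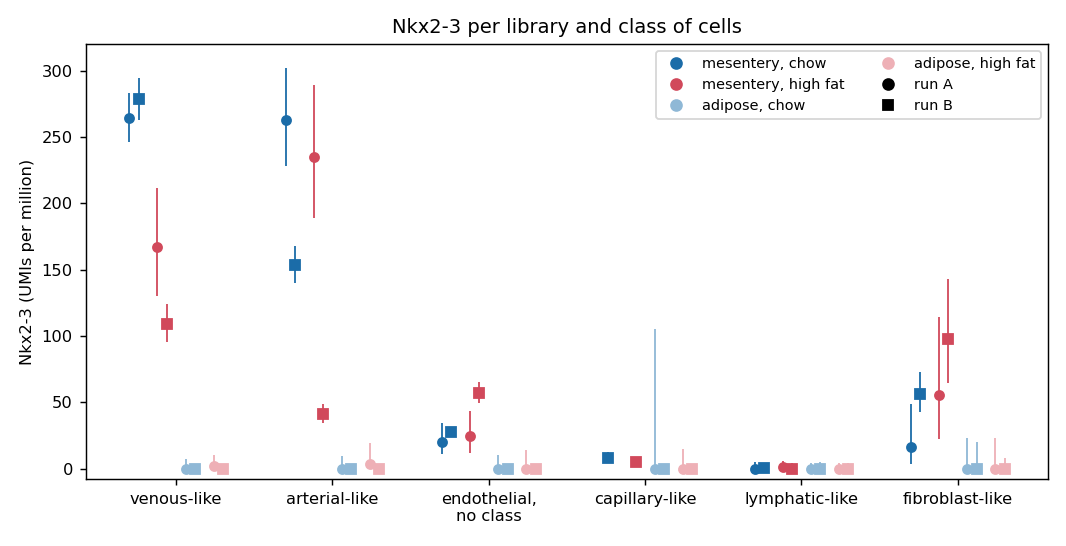
Nkx2-3 in CPM (vertical axis) in each library of at least 20 cells, by class of cells (horizontal axis). Colours mark tissue and diet, circles run A and squares run B, and bars are exact 95% counting intervals. Venous-like cells of the mesentery sit at 264 and 278 CPM on chow and 167 and 109 CPM on HFD, and the adipose libraries lie at or near 0 in each class.

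Endothelial cells that took no class name lay between these levels, at 20.5 and 27.8 CPM on chow and 24.4 and 57.0 CPM on HFD in runs A and B. They are a mixture of clusters, and the gene was uneven among them. Cluster 20, led by Esm1 (a marker of sprouting tip cells), stood at 120 and 88.0 CPM on chow and 174 and 64.65 CPM on HFD. Cluster 10 carried the mural genes Pdgfrb, Rgs5 and Notch3 beside endothelial markers and held the gene in 45.5% of cells on chow and 46.3% of 177 on HFD in run B. Cluster 23, led by Marco, Stab2 and Clec1b, held 1 Nkx2-3 UMI in 322 cells.

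The venous-like class split by cluster. Cluster 12, led by Adgrg6, Myof and Vwf (von Willebrand factor) and found almost only in run B, held Nkx2-3 in 62.5% of 533 cells on chow and 64.6% of 65 on HFD, at 422 and 328 CPM. Nkx2-3, which took no part in the clustering, was among its 10 leading genes. Leading genes are those highest against all other cells of both tissues, so this place in part repeats the tissue pattern that chose the gene. Cluster 14, led by the adhesion molecules of activated veins Selp, Sele and Vcam1 and found mostly in run A, held it in 57.4% of 533 cells on chow and 57.1% of 42 on HFD, at 303 and 323 CPM. These clusters, each mostly from 1 run, had the highest pooled levels of the mesenteric clusters, and their shares on chow and on HFD lay within each other's counting intervals. Cluster 7, led by Cysltr1 and the chemokine-binding receptor Ackr1, was at 102.5 CPM on chow and 42.65 CPM on HFD in run B. In run A its 17 and 10 cells gave 159 and 180 CPM.

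Cluster 32 was the venous cluster of high endothelial venule genes, the vessels through which lymphocytes enter lymph nodes. It was led by Glycam1 and Madcam1 and carried Fut7, an enzyme that builds selectin ligands. Nkx2-3 stood there at 35.6 and 74.2 CPM on chow and 39.3 and 100.1 CPM on HFD in runs A and B, from 42, 61, 19 and 8 cells. In both chow libraries, the ones with at least 20 cells of cluster 32, it was lower than in the venous cluster of that run, 14 or 12.

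Among arterial-like clusters, cluster 5 (led by Gkn3 and the gap junction gene Gja5) and cluster 25 (led by Cytl1 and Klk10) held the most. Cluster 5 was at 286 and 163 CPM on chow and 246 and 72.5 CPM on HFD in runs A and B. Cluster 25, found almost only in run B, was at 209 CPM on chow in 218 cells and 165 CPM on HFD in 23 cells. Cluster 4, led by Col8a1 and the Notch target Hey1, was at 65.3 and 75.7 CPM on chow and 173 and 13.7 CPM on HFD in runs A and B, with only 4 and 15 Nkx2-3 UMIs in run A. Cluster 4 was thus below clusters 5 and 25 in each library that held at least 20 cells of the clusters compared.

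**Figure D2:**
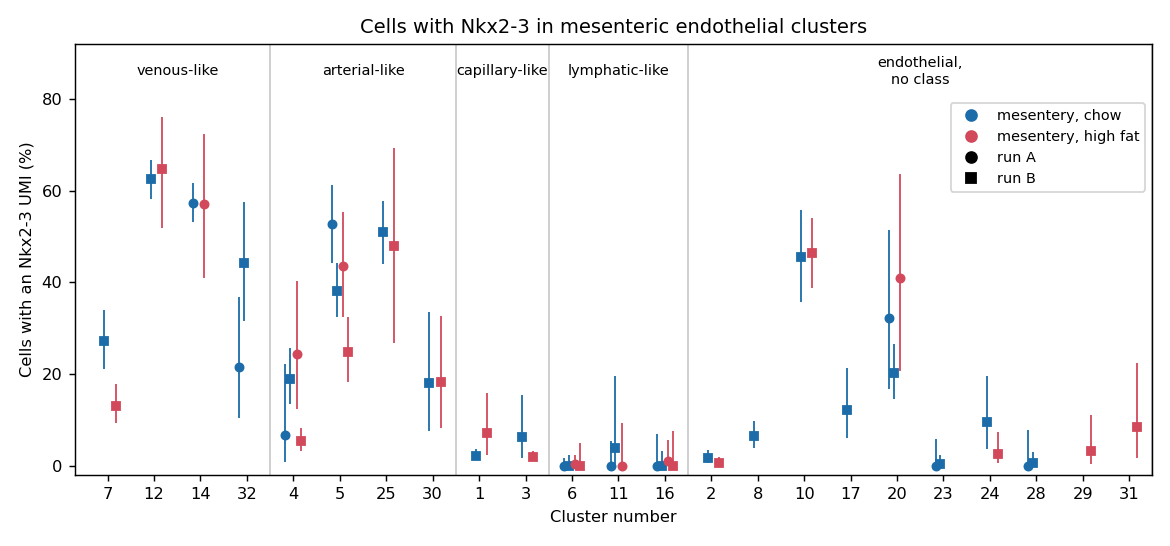
Share of cells with an Nkx2-3 UMI in percent (vertical axis) for each endothelial cluster of the mesentery (horizontal axis, cluster numbers grouped by class), in libraries with at least 20 cells of the cluster. Blue is chow, red HFD, circles run A, squares run B, and bars exact 95% binomial intervals. Venous-like clusters 12 and 14 reach 57.1 to 64.6%, arterial-like cluster 5 24.8 to 52.8%, and the lymphatic-like clusters lie near 0.

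The question of diet within the mesentery was one the choice of the gene had not used, and edgeR's quasi-likelihood model was fitted to it over all genes, with counts summed per library. In each run the HFD library held less Nkx2-3 in all endothelial cells (192 to 67.5 CPM in run A and 99.6 to 41.9 CPM in run B). The same order held in venous-like cells (264 to 167 and 278 to 109 CPM) and in arterial-like cells (263 to 235 and 154 to 40.9 CPM). The share of arterial-like cells of run A at equal depth went the other way, from 16.95 to 20.18% at 1000 UMIs and from 27.7 to 37.65% at 2000 UMIs. In venous-like cells of run A it was 23.35 and 16.05% at 1000 UMIs and 37.07 and 36.92% at 2000 UMIs. In those of run B it was 34.46 and 14.56% at 2000 UMIs, so HFD A lay above chow B at that depth. The fits tested the summed counts over both runs, and Nkx2-3 was called in none of these classes. The shares and the differences within a single run were not tested.

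The group means in all endothelial cells were 146 ± 65.4 CPM on chow and 54.7 ± 18.1 CPM on HFD (SD, n = 2 each), a log2 change of -1.47 ± 0.90 (SE) with an edgeR adjusted p of 1. No gene was called there: 0% of 13635 genes had an adjusted p under 0.05. Of the genes, 250 were at an unadjusted p under 0.05. DESeq2 called 5, which were Csf1, Cyp26b1, Cyp1a1, Crisp1 and Pla2g7 (named after their values were seen), and limma-voom called 0. Venous-like cells gave 271 ± 10.0 against 138 ± 40.8 CPM (SD, n = 2 each), a log2 change of -0.91 ± 0.56 with an edgeR adjusted p of 1, and the libraries of the diets did not overlap. Called genes made up 0% of 10671 there, with 142 at an unadjusted p under 0.05, 2 called by DESeq2 (Cyp1a1 and Angptl4, named after their values were seen) and 0 by limma-voom. Arterial-like cells gave 208 ± 77.3 against 138 ± 137 CPM (SD, n = 2 each), a log2 change of -0.69 ± 0.93 with an edgeR adjusted p of 1. Called genes made up 0% of 10481, with 211 at an unadjusted p under 0.05, 1 called by DESeq2 (8430408G22Rik, named after its value was seen) and 0 by limma-voom.

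The runs pair the libraries, since the labels describe them as repeats of the experiment, and a fit with the run as a block narrowed the errors. The change was then -1.39 ± 0.34 in all endothelial cells (edgeR adjusted p 0.27), -0.99 ± 0.27 in venous-like cells (0.29) and -1.16 ± 0.31 in arterial-like cells (0.054), and Nkx2-3 was called in none of them. The block moved the number of all genes called to 287 in arterial-like and 14 in venous-like cells and left it at 0 in all endothelial cells.

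In capillary-like cells, where only the run B libraries of the mesentery had at least 20 cells, each diet was a single library, at 8.39 and 5.31 CPM, so the fit borrows its spread from the adipose groups and assumes that the mesenteric libraries vary like them. On that assumption the log2 change was -0.66 ± 1.39 (edgeR adjusted p 1), and 9 of 11574 genes (0.0778%) were called, with 109 under the block. It is no replicated comparison of the diets. Lymphatic-like cells had too few counts for Nkx2-3 to pass the filter. The arterial-like change moved with single libraries. It was 0.17 without HFD B, -2.50 without HFD A, -0.15 without chow A and -1.09 without chow B. The venous-like change was -0.53 without HFD B and -1.42 without HFD A, and that of all endothelial cells was -0.81 without chow A and -1.93 without chow B.

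The makeup of the classes moved with the diet. In venous-like cells of run B, cluster 12 (Nkx2-3 at 422 and 328 CPM) went from 65.6 to 18.5% of the class between chow and HFD, and cluster 7 (102.5 and 42.65 CPM) from 24.5 to 75.9%. In run A cluster 14 went from 87.8 to 50% and cluster 32 from 6.92 to 22.6%. In arterial-like cells cluster 4, the arterial-like one with the least Nkx2-3 over the pooled libraries, made up 16.7 and 32.3% of the class on chow and HFD of run A, and 24.6 and 61.5% in run B. Different clusters thus held most of the venous-like class on the 2 diets of run B. Inside single clusters the levels on chow and HFD lay closer in clusters 12, 14 and 25 than in the class sums of the same run. In clusters 4, 5 and 7 of run B they differed by more than 2-fold, each lower on HFD, and cluster 4 of run A was higher on HFD. The part of the makeup in the change of the class was not tested.

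**Figure D3:**
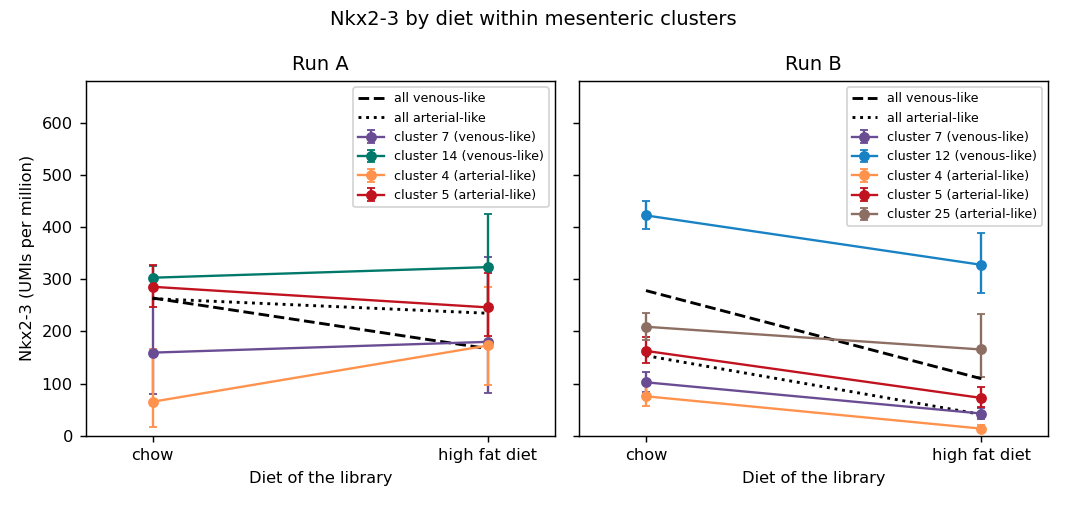
Nkx2-3 in CPM (vertical axis) on chow and on HFD (horizontal axis), in run A (left) and run B (right), for clusters with at least 10 cells in both libraries. Bars are exact 95% counting intervals, and the broken and dotted lines are the venous-like and arterial-like class sums. In run B the venous-like sum goes from 278 to 109 CPM while cluster 12 goes from 422 to 328 CPM.

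Genes that earlier work links to Nkx2-3, or that act with Madcam1 in lymphocyte homing, were read as a list of 19, of which 18 could be matched by a single identifier. Ccl21a could not, and it is left out of the counts of list genes. In the comparison of tissues on chow, the contrast that chose Nkx2-3, edgeR called 0 of 18 list genes and 0% of 13635 genes, while 476 had an unadjusted p under 0.05 and 0 called by limma-voom. The median log2 difference, mesentery minus adipose, was 1.77 over the list and -0.01 over all genes. On HFD edgeR again called 0 of 18 and 0% of 13635, with 92 at an unadjusted p under 0.05 and 0 by limma-voom, and the medians were 0.24 and -0.00. DESeq2 called 73 genes on chow and 7 on HFD. Blocking on the run gave 21 edgeR calls on chow and 0 on HFD. Nkx2-3 is left out of all counts of list genes.

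Madcam1 was at 109 and 130 CPM on chow and 142 and 6.51 CPM on HFD in mesenteric endothelial cells of runs A and B, and at 0 to 0.894 CPM in the 4 adipose libraries. All mesenteric libraries were above all adipose libraries, as for Nkx2-3, and the low one was the run B library on HFD. The log2 difference on chow was 8.34 ± 1.83 with an edgeR adjusted p of 1, and 0.093 with the block. Glycam1, the mucin that carries selectin ligands, stood at 2388 and 2295 CPM on chow and 2870 and 255 CPM on HFD in mesentery and at 0 to 23.6 CPM in adipose. Its log2 difference on chow was 15.90 ± 2.81 (edgeR adjusted p 0.72). Gcnt1, an enzyme that branches the sugars of such ligands, was at 29.2 and 32.4 CPM on chow and 17.55 and 10.35 CPM on HFD in mesentery and at 5.62 to 6.01 CPM in adipose. With a difference of 2.49 ± 0.35 on chow it was the list gene with the smallest p (edgeR adjusted p 0.72), and it passed with the block (0.042). DESeq2 called Madcam1, Glycam1, Gcnt1, Fut7, Chst4 and Edn1 of this list on chow and Madcam1 and Glycam1 on HFD. In the mesentery, Madcam1, Glycam1, Fut7 and Chst4 lay mainly in cluster 32 (2596, 56943, 576 and 231 UMIs). Cluster 28, without a class name, held 760 UMIs of Madcam1 and 10482 of Glycam1. Adipose had 2 cells of cluster 32 and 0 of cluster 28, and the run B mesenteric library on HFD had 8 and 0. The part of these cells in the tissue differences was not tested.

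Vcam1, the adhesion molecule for lymphocytes and monocytes, had overlapping ranges in the tissues. It was at 1433 and 202 CPM on chow and 224 and 97.8 CPM on HFD in mesentery, and at 272, 42.0, 179.5 and 59.8 CPM in adipose in the same order. The mesenteric library was the higher one within each run and diet, while the ranges overlapped across runs, and the log2 difference on chow was 2.46 ± 1.31 (edgeR adjusted p 1, and 0.089 with the block). Of the other list genes on chow, Chst4, Fut7 and Chst2, enzymes that build selectin ligands, differed by 10.04 ± 2.72, 8.90 ± 2.26 and 1.84 ± 0.42. Edn1 (endothelin-1) differed by 1.49 ± 0.32, Ackr1 by 2.15 ± 1.01, Selp by 1.95 ± 1.64, Fut4 by 1.70 ± 0.85, Icam1 by 1.64 ± 1.73, Sele by 1.15 ± 2.97 and Vegfa by 0.99 ± 0.52. The smaller values were 0.44 ± 0.57 for St3gal4 and 0.20 ± 0.79 for B3gnt3, and none of these genes was called by edgeR. Icam2 and Cd34, which endothelium of most organs expresses, differed by 0.13 ± 0.24 and 0.38 ± 0.46. The list had a median log2 change with HFD of -1.04 in all endothelial cells, -0.28 in venous-like and -1.0 in arterial-like cells, against -0.01, 0.01 and -0.01 over all genes, and 0 of 18, 0 of 17 and 0 of 12 genes tested were called by edgeR. With the block, 5 of the 12 were called in arterial-like cells, and these were Vcam1, Icam1, Vegfa, Gcnt1 and Selp, each lower on HFD, beside 287 of 10481 genes in all. In lymphatic-like cells, where Nkx2-3 was at background, the block called 2 of 10 list genes, Icam1 and Edn1, beside 150 of 8852 in all.

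By cluster, Madcam1 and Nkx2-3 did not follow each other. Madcam1 was at 1828 CPM in cluster 32, where Nkx2-3 was at 60.6 CPM, and at 475.5 CPM in cluster 28 (led by Coch, Bmp2 and Il4i1), where Nkx2-3 was at 2.50 CPM. In clusters 12 and 14, where Nkx2-3 was at 409 and 311 CPM, Madcam1 was at 0.731 and 2.54 CPM. In arterial-like clusters 5 and 25, at 174.5 and 203 CPM of Nkx2-3, Madcam1 was at 0.715 and 0 CPM. The clusters richest in Nkx2-3 were therefore nearly free of Madcam1, and cluster 32 held both. Of venous-like cells with an Nkx2-3 UMI, 3.09 and 6.15% on chow and 17.1 and 9.2% on HFD in runs A and B also held Madcam1, against 4.59, 3.08, 16.3 and 1.89% of the others. In arterial-like cells 0 of 457 cells with Nkx2-3 held Madcam1. These shares are not matched for depth, and cells with Nkx2-3 had the higher median UMI count in 3 of the 4 venous-like libraries.

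Gm20467, the lncRNA that starts 268 bases away in the other direction, showed the tissue pattern of Nkx2-3 at a lower count. Endothelial cells held 268 Gm20467 UMIs in the mesentery and 0 in adipose, at 14.2 and 7.28 CPM on chow and 3.51 and 3.02 CPM on HFD. It was highest in cluster 12 (32.9 CPM), cluster 14 (26.1 CPM) and cluster 25 (18.85 CPM) and at 1.41 CPM in cluster 32. Among venous-like cells it was found in 13.9, 16.3, 17.1 and 14.9% of cells with an Nkx2-3 UMI and in 4.95, 3.33, 0 and 0.755% of the others, for chow A, chow B, HFD A and HFD B. In each of the 4 libraries the share was higher in cells with Nkx2-3, and the same held in arterial-like cells (4.26 to 10.3% against 0 to 1.56%). These shares are not matched for depth either, and arterial-like cells with Nkx2-3 were the deeper ones in each library, with medians of 3561 to 5841 against 2092 to 4628 UMIs.

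**Figure D4:**
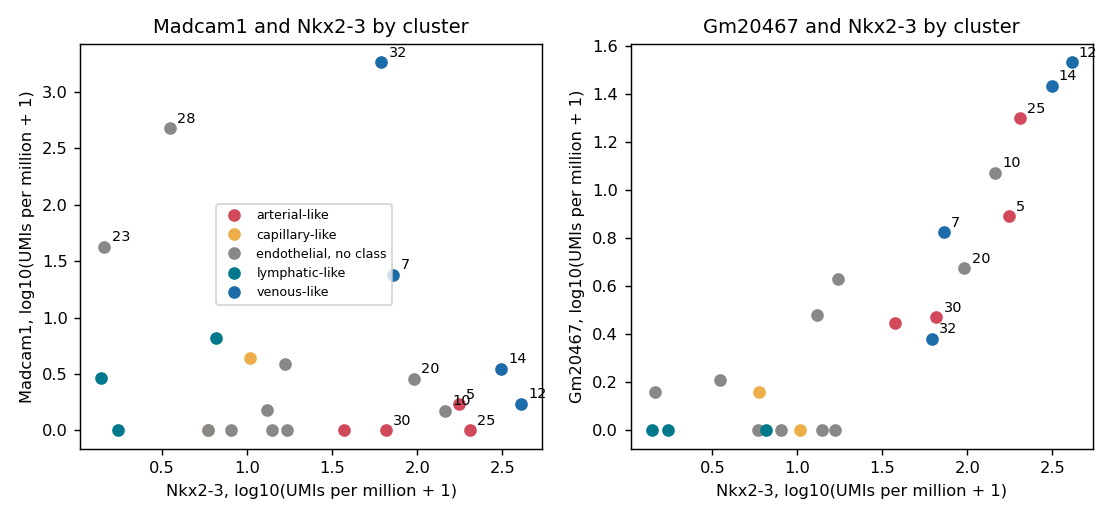
Madcam1 (left) and Gm20467 (right) against Nkx2-3 in endothelial clusters of the mesentery with at least 50 cells, as log10(CPM + 1) on both axes. Each point is a cluster with all 4 mesenteric libraries pooled, coloured by class. Cluster 32 has Madcam1 at 1828 CPM with Nkx2-3 at 60.6 CPM, and clusters 12 and 14 have Nkx2-3 at 409 and 311 CPM with hardly any Madcam1.

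Of the other neighbours, Got1, Slc25a28 and Entpd7 did not share the pattern. Got1, an aminotransferase of the malate shuttle, had 491 UMIs in mesenteric and 452 in adipose endothelial cells. Slc25a28, a mitochondrial iron carrier, had 1422 and 1654, and Entpd7 331 and 417. Cnnm1 had 6 and 0, too few to judge its pattern. Gm19179, Gm34636, Gm34922, Gm4311 and BC037704 of the RefSeq order could not be matched in the feature lists.

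None of the NK2 family relatives described here came near Nkx2-3. In 8 of them there were 0 UMIs in all endothelial cells: Nkx2-1, Nkx2-2, Nkx2-4, Nkx2-5, Nkx2-9, Nkx3-2, Nkx1-1 and Nkx1-2. Nkx2-6 had 25 UMIs in 5 adipose cells, up to 9 in a cell, and 0 in the mesentery. Nkx6-2 had 11 UMIs in 9 cells, 3 of them in the mesentery, and Nkx6-1 and Nkx6-3 had 7 each. Nkx2-3 with 3716 UMIs thus was the one among these genes found in more than 9 endothelial cells. Among 20 organ patterning factors, such as Gata6, Meis2 and Tbx3, 13 passed the filter and 0 were called by edgeR between tissues on chow, at a median log2 difference of 0.29. Among 30 endothelial identity factors the median was -0.02 with 0 called, and among 18 BMP and hedgehog genes 0.33 with 11 tested and 0 called. With the block Gata6 was called, and DESeq2 called Bmp2, both on chow and both named after their values were seen.

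The genes with the levels most like those of Nkx2-3 were read over 30 sums of a class in a library, as Pearson's correlation of log2(CPM + 10) among 7987 genes. This is a description, since the sums share libraries and depth. Cyp1b1, a cytochrome P450 that metabolises oestrogens and polycyclic compounds, was first at 0.91, followed by Ms4a6b (0.82) and Ces2g (0.77), a carboxylesterase. Serpina1b, Serpina1e and Iqgap1, a scaffold of the actin cortex, were at 0.75, Orai1, the store-operated calcium channel, at 0.74, and Cytl1, Myof and Klk8 at 0.73. The pair Serpina1b and Serpina1e are near-identical copies whose counts may be split uncertainly. Madcam1 was in place 21 at 0.67. Cyp1b1 was at 52.6 and 29.65 CPM on chow and 26.6 and 12.5 CPM on HFD in mesenteric venous-like cells and at 1.88 to 3.25 CPM in those of adipose, so it shared the tissue pattern. It was also high where Nkx2-3 was not, being a leading gene of clusters 23 and 28.

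Within the mesentery alone, over 14 sums each centred on its library, the most alike were Golm1, Ehd4, Iqgap1, Emp3 and Csad at 0.98 and Gnaq, Ces2g, Myof, Mmp2 and Fam69a at 0.97. These include genes of membrane trafficking and repair (Golm1, Ehd4, Myof) and the matrix protease Mmp2. With so few sums many genes correlate as highly: Vcam1 in place 18 had 0.97 and Vwf in place 78 had 0.90. Madcam1 was in place 1081 at 0.54. By rank correlation 4 of the 10 genes over all sums and 3 of the 10 within the mesentery were the same, so the order is soft.

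Cells with Nkx2-3 were compared with cells without it inside the mesenteric venous-like and arterial-like classes. Each cell was thinned to 1000 UMIs, counts were summed per library and status, and edgeR tested all other genes with the library as a block. A cell without a UMI may still express the gene at this depth, so the contrast is one of more against less. In arterial-like cells the 4 libraries gave 30, 88, 23 and 23 cells with and 147, 584, 91 and 529 without, for chow A, chow B, HFD A and HFD B. In venous-like cells they gave 138, 180 and 35 with and 453, 590 and 300 without for chow A, chow B and HFD B. High fat diet A, with 13 cells, was left out of the venous-like fit.

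In arterial-like cells with Nkx2-3, Plat was higher, and Cxcl12, Gpihbp1 and Cldn5 were among the genes that were lower than in those without. The calls of Plat and Cldn5 were lost with a second random draw of the thinning. edgeR called 14 of 1520 genes (0.921%), 3 higher and 11 lower, of which 10 went the same way in all 4 libraries. The balance of directions moved with the thinning: a second random draw gave 0 higher and 7 lower, 2000 UMIs per cell gave 16 and 21, and cells that were not thinned gave 61 and 54. Plat, tissue plasminogen activator, was the one higher gene among these 10. It was at 734, 671, 435 and 609 CPM with and 605, 305, 209 and 206 CPM without, for chow A, chow B, HFD A and HFD B. The log2 fold was 0.94 ± 0.20 (edgeR adjusted p 0.00073), and chow A showed the smallest difference. The call was lost with the second draw of the thinning (edgeR adjusted p 1) and held at 2000 UMIs (0.00051).

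Cxcl12, the chemokine that guides arterial growth and retains leukocytes, was lower. It was at 33.4, 262, 261 and 1001 CPM with and 149.7, 815, 494.5 and 1641 CPM without in that order, a log2 fold of -1.24 ± 0.22 (edgeR adjusted p 4.4e-05). Emcn, the sialomucin endomucin of capillaries and veins, had a log2 fold of -1.44 ± 0.39 (edgeR adjusted p 0.03). That value rests on few UMIs, with 1 to 8 of Emcn in cells with Nkx2-3 of any library. Gpihbp1, which holds lipoprotein lipase on the capillary wall, had -1.15 ± 0.26 (edgeR adjusted p 0.0017). Rbp7, a retinol carrier of adipose vessels, had -0.95 ± 0.21 (0.0017), and Fabp5, a fatty acid carrier, -1.0 ± 0.28 (0.045). Cldn5, a tight junction protein of all endothelium, was at 1769, 876, 1872 and 1045 CPM with and 2565, 1342, 2725 and 1609 CPM without, -0.60 ± 0.13 (edgeR adjusted p 0.0014). Tspan13 (-0.97), Rflnb (-0.92) and Sparc (-0.54) were also lower. In chow A, cells with Nkx2-3 held 1 UMI each of Cxcl12, Fabp5 and Rflnb and 0 of Gpihbp1 and Rbp7. The direction of these genes in that library thus rests on values near the floor. Bgn, Mgp, Fabp4 and Igfbp7 were called without going the same way in all 4 libraries. With the second draw of the thinning, 4 of the 14 calls held, those of Cxcl12, Gpihbp1, Fabp4 and Igfbp7. Those of Cldn5 (edgeR adjusted p 0.31), Emcn (0.98), Rbp7 (0.95), Fabp5 (0.98) and Sparc (0.98) were among the calls lost. At 2000 UMIs per cell 9 of the 14 held.

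In venous-like cells edgeR called 17 of 3976 genes (0.428%), 1 higher and 16 lower. Lgals3, the lectin galectin-3, was the higher one, at 232, 111 and 85.8 CPM with and 64.0, 61.0 and 30 CPM without in chow A, chow B and HFD B, a log2 fold of 1.34 ± 0.29 (edgeR adjusted p 0.041). This call too was lost with the second draw (edgeR adjusted p 0.97) and at 2000 UMIs (0.09). In HFD B the level of Lgals3 in cells with Nkx2-3 rests on 3 UMIs. The lower genes included Glycam1 and Ubd, which are among the leading genes of cluster 32. Glycam1 was at 21.8, 935 and 172 CPM with and 2000, 3437 and 703 CPM without, a log2 fold of -2.68 ± 0.32 (edgeR adjusted p 0.00015). Ubd, a ubiquitin-like protein, had -2.81 ± 0.45 (0.0045). Ccl21a, the chemokine that draws lymphocytes and dendritic cells to lymph nodes, had -3.20 ± 0.27 (1.4e-06), and its near-identical copies make its count uncertain. Cells with Nkx2-3 held 3, 59 and 0 UMIs of Ccl21a in chow A, chow B and HFD B.

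Among the other lower genes of venous-like cells, Timp4, an inhibitor of matrix proteases, had a log2 fold of -2.61 ± 0.51, Aplnr, the apelin receptor, -2.06 ± 0.43 and Cd300lg, a lymphocyte-binding receptor of capillaries, -2.06 ± 0.39, with edgeR adjusted p of 0.026 to 0.041. These folds rest on 0 to 6 UMIs of each gene per library in cells with Nkx2-3, and that of Ubd on 0 to 10. With the second draw of the thinning the calls of Timp4, Aplnr and Cd300lg were lost (edgeR adjusted p 0.16, 0.26 and 0.06). Of the 16 venous-like calls that could be tested in that draw, 9 held. The basement membrane collagens Col4a1 and Col4a2 had -1.35 ± 0.27 and -1.38 ± 0.30 (0.032 and 0.042). AW112010 (-1.55) and Rflnb (-1.29) complete the 10 largest falls that went the same way in all 3 libraries, and Cxcl12 (-1.21), Igfbp7 (-0.96) and Apoe (-0.61) were lower in the same way. Cxcl12, Rflnb, Igfbp7, Fabp5 and Gpihbp1 were called lower in both classes. Igfbp7 went that way in 3 of 4 arterial-like libraries, and Fabp5 and Gpihbp1 in 2 of 3 venous-like ones. With the second draw of the thinning, Igfbp7 and Gpihbp1 kept the call in both classes. Fabp5 lost it in both (edgeR adjusted p 0.98 in arterial-like and 0.21 in venous-like cells). Rflnb lost it in arterial-like cells and Cxcl12 in venous-like cells (0.56). Of the linked genes matched by a single identifier, Glycam1 was the 1 called among 11 tested in venous-like cells, and 0 of 5 were called in arterial-like cells. Ccl21a, the linked gene left out of these counts, was also called lower in venous-like cells, as given above. Madcam1 had -0.79 ± 0.43 (edgeR adjusted p 0.82), Vcam1 0.02 ± 0.13 in venous-like and 0.19 ± 0.20 in arterial-like cells.

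**Figure D5:**
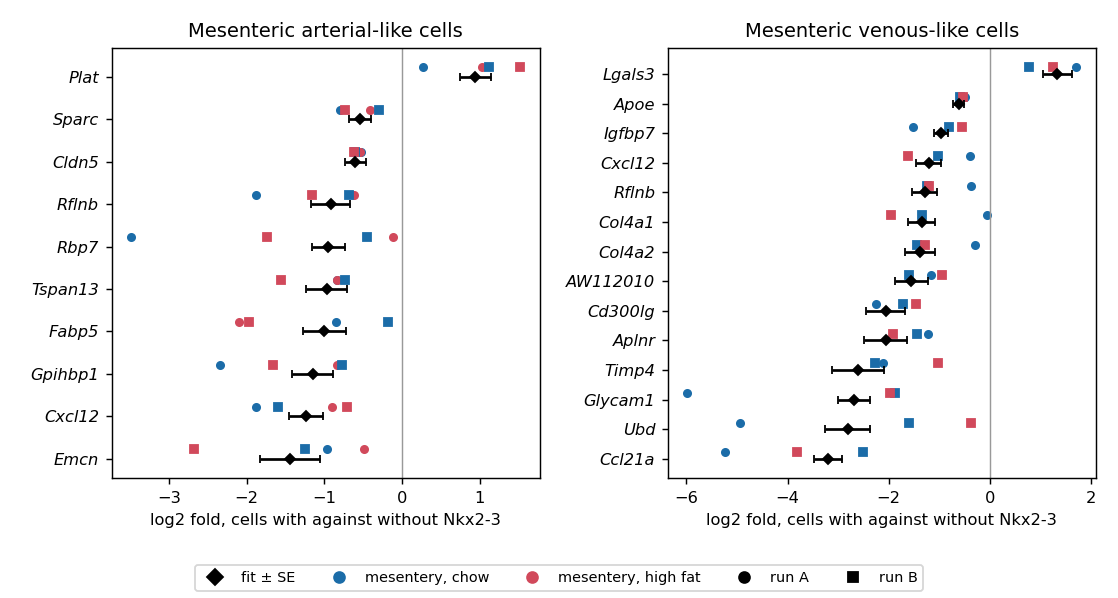
Log2 fold of cells with against cells without an Nkx2-3 UMI (horizontal axis) for the called genes that went the same way in all libraries fitted, in arterial-like (left) and venous-like (right) cells of the mesentery. Diamonds with bars are the edgeR estimate and its SE, and coloured points are single libraries, as the ratio of CPM + 10. Plat at 0.94 and Lgals3 at 1.34 are the genes higher in cells with Nkx2-3.

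The mixture of clusters differed between the cells compared. Clusters 12 and 14 held 97.1, 86.7 and 54.3% of venous-like cells with Nkx2-3 and 87.6, 59.3 and 17% of those without, in chow A, chow B and HFD B. Clusters 5 and 25 held 93.3, 85.2, 65.2 and 65.2% of arterial-like cells with and 76.2, 66.8, 61.5 and 29.3% of those without, in chow A, chow B, HFD A and HFD B. When library and cluster together were the block, a fit chosen after seeing the data, edgeR called 0 of 1334 genes in arterial-like cells, with 50 at an unadjusted p under 0.05. Of the 14 called genes 7 could be tested there and 6 kept their direction, but not all by a like size. Plat was at 0.58, Cldn5 at -0.73, Tspan13 at -0.76 and Sparc at -0.41, while Bgn was at 0.12, Fabp4 at -0.01 and Mgp turned to -0.06. Venous-like cells could not be fitted in that way. DESeq2 called 0 genes in both classes, with 33 and 41 at an unadjusted p under 0.05. The number of calls also rested on each library. Without chow A, chow B, HFD A or HFD B, edgeR called 2, 3, 3 and 4 genes in arterial-like cells, and without chow A, chow B or HFD B it called 33, 2 and 8 in venous-like cells.

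Of the 8 capillary markers, 7 were tested in arterial-like cells and 2 called lower. Their sum ranged from 2937 to 23506 CPM with Nkx2-3 and from 2537 to 44164 CPM without. In venous-like cells 2 of 8 were called lower. The arterial markers gave 0 of 10 calls in arterial-like cells, and the venous markers 0 of 9 in venous-like cells, so none of these defining genes passed the test. Of the 8 general endothelial markers, 2 were called lower in arterial-like and 0 in venous-like cells. The sum of adipocyte markers, of which 0 were called, reached 159.3 CPM with and 460.6 CPM without Nkx2-3 in arterial-like cells, and 267 and 449 CPM in venous-like cells, and the part of these RNAs in the result was not tested. Of the mural markers 3 were tested in venous-like cells and 0 called, and the fibroblast, mesothelial, macrophage, T cell and B cell markers did not pass the filter on low counts. Their sums stayed at or under 28.6 CPM in cells with Nkx2-3, and T cell and B cell markers were at 0 in all cells with Nkx2-3 of both classes. Median numbers of genes per thinned cell were 619.5 to 659 with and 623 to 664 without Nkx2-3 in arterial-like cells. In venous-like cells they were higher with Nkx2-3 in each of the 4 libraries, by library 639 and 632, 657.5 and 650, 628 and 606, and 663 and 648.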

How the data were processed

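The deposited matrices hold whole-number UMI counts per gene and cell barcode. Per the file headers the authors made them with Cell Ranger 3.0.2 (run A) and 5.0.0 (run B), and the submitters' processing notes name mm10 and Seurat 4.3.0; strand settings and the sort gate were not given in these sources. Only the 30406 gene identifiers common to both versions were used. Barcodes needed 500 or more UMIs, 300 or more genes and no more than 10% mitochondrial counts, and the cells with the highest Scrublet scores were removed at 0.8% per 1000 cells, 763 of 23970 (the automatic threshold marked 48). Cells were clustered on 2000 variable genes without Nkx2-3 and Gm20467 (30 components, 20 neighbours, runs aligned by a Harmony implementation, Leiden resolution 1), giving 38 clusters. A cluster took a class name where at least 3 of its markers were raised 1.5-fold, and was taken as endothelial from a mean log-normalised marker level of 0.75 upward.

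Counts were summed per library and class (at least 20 cells) and tested with edgeR 4.0.16 (quasi-likelihood, Benjamini-Hochberg over all genes, adjusted p under 0.05), with all groups in the fit. DESeq2 1.42.0, limma 3.58.1 voom, a run block, other filters, other clusterings and leaving out each library were alternatives. Same-run libraries deviated together (correlations of deviations from group means of 0.69 to 0.87 in all endothelial cells, 0.61 to 0.73 in arterial-like and 0.63 to 0.76 in venous-like cells), and the labels describe the runs as repeats. The fits were tested on simulated data. Genes were named as the 10 called genes with the largest change that went the same way in all libraries, the 10 most alike in level, and the members of the lists. Nkx2-3 and all lists were chosen with earlier results of these data known. Intervals are at 95%, and a count of 0 is read as up to 3 counts. Total counts were 3461360 to 36779289 per library, so run A values are less precise.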

Additional observations from a re-analysis of the deposited data

Results flagged for a closer look

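Nkx2-3 was also found outside the endothelial classes of the mesentery. Of fibroblast-like cells 16.1% (52 of 322, exact 95% interval 12.3 to 20.6%) held a UMI, against 0 of 319 in adipose, which allows up to 0.94%. By library the levels were 16.7 and 56.5 CPM on chow and 55.4 and 98.0 CPM on high fat diet in runs A and B. Mesothelial-like cells held it in 14.3% (5 of 35, 4.81 to 30.3%), against 0 of 67 in adipose, which allows up to 4.48%. Cluster 10, with mural genes beside endothelial markers (Pdgfrb at 645 CPM and Cdh5 at 1004 CPM), held it in 45.9% (128 of 279, 39.9 to 51.9%), against 0 of 421 in adipose, which allows up to 0.713%. These cells are outside the comparisons by named endothelial class, and whether RNA or cells of other types contribute was not tested.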

How the results depend on the processing

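The diet change of Nkx2-3 was called in none of 17 alternatives in all endothelial, venous-like and arterial-like cells. In capillary-like cells each diet was 1 mesenteric library, so the alternatives there say nothing about stability. Leaving out a library gave -2.50 to 0.17 in arterial-like cells. Its direction reversed to 0.17 in arterial-like cells without the run B library on high fat diet and to 0.84 in capillary-like cells with a minimum of 1000 UMIs per cell. With the run as a replicate block it was -1.39, -0.99, -1.16 and -0.66 in all endothelial, venous-like, arterial-like and capillary-like cells. Of the 99 genes of all lists edgeR called 0 between tissues; the counts were 7 (chow) and 2 (high fat diet) by DESeq2 and 2 (chow) with the replicate block. Genes called between cells with and without Nkx2-3 numbered 14 in arterial-like cells and, under alternatives, 0 (DESeq2, no replicate block, and library and cluster as the block, the last chosen after seeing the data), 7 (second thinning seed), 37 (thinned to 2000 UMIs), 115 (not thinned) and 2 to 4 (leaving out a library). In venous-like cells the 17 calls became 0 (DESeq2 and no replicate block), 33 (no filter), 9 (second seed), 85 (2000 UMIs), 166 (not thinned) and 2 to 33 (leaving out a library). Group means of the share of mesenteric cells with a UMI moved by at least the SD of the group's 2 libraries in 4 of 32 changes of clustering or filter. They did so in 7 of 16 comparisons of thinning. Depth limits run A classes under 20 cells, which got no test.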
